A study of Mus musculus with 9 samples.

Results

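The genes described here encode the ephrins, the semaphorins, the Slits and the netrins, which are the classical guidance cues of migrating cells and growing axons, together with their receptors, the Eph receptors, the plexins and neuropilins, the Robo receptors and the Unc5 receptors. Their symbols alone decided which genes belonged, but these families were singled out with earlier results of these data known. Of 19938 genes measured on the arrays, 67 belonged to these families, with 72 of the 28853 probe sets. Where a gene had more than 1 probe set, the brightest over all arrays stood for it. The families comprised 13 Eph receptors, 8 ephrins, 20 semaphorins, 11 plexins and neuropilins, 7 Slits and Robos, and 8 netrins and Unc5 receptors.

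Total RNA of 3 mouse cell lines was hybridised to Affymetrix Gene 1.0 ST arrays, with 3 arrays for each line. P19 NTES7 cells are ES-like cells obtained by nuclear transfer, from blastocysts cloned with the nuclei of P19 cells. The labels name this line only as pluripotent stem cells from P19 cells, and it was taken as line 7 from the short name in the series' description. P19 cells are an embryonal carcinoma (EC) line, which is the stem cell type of a teratocarcinoma, and R1 cells are a normal embryonic stem (ES) cell line. All lines were grown in the same ES medium with serum and leukemia inhibitory factor, without any other treatment. Per the methods, P19 NTES cells and ES cells were kept on mitomycin C-treated embryonic fibroblasts, and the series' description states that feeder cells were removed before collection. Each condition is represented by 1 cell line, so a difference is one between these lines. By their labels the 3 arrays of each line are biological repeats. No source used here states if each had its own culture, and the p-values rest on the spread from array to array.

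Guidance cues act at short range from a cell surface or at longer range as secreted proteins, and most of them reach the cytoskeleton through small GTPases. Ephrins are held in the membrane and bind Eph receptor tyrosine kinases on a neighbouring cell, so that both cells are signalled to. Semaphorins bind plexins, and the secreted class 3 semaphorins mostly need a neuropilin as co-receptor. Slits bind Robo receptors, and netrins bind Dcc, neogenin and the Unc5 receptors. In pluripotent cells these proteins are best known for cell sorting and for the later patterning of nerves and vessels.

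The 9 arrays had median intensities from 16.5 to 17.5. The 10 markers of pluripotent cells all had a mean above the median of all values (16.9) in every line, but their levels differed. Their summed intensity was 5125 to 5778 in P19 NTES7, 5895 to 6229 in P19 and 9274 to 9625 in R1. Zfp42 fell below the median on P19 array 3 (15.8). The summed intensity of 23 measured fibroblast markers also differed strongly between lines. This sum was 1585, 1291 and 1306 on the P19 NTES7 arrays, 365, 365 and 403 on the P19 arrays, and 1874, 1889 and 2176 on the R1 arrays. Fap and S100a4, a pair of these markers, were below the median of all values on every array, whereas the collagen gene Col1a1 averaged 297 ± 61.3 in P19 NTES7, 49.2 ± 11.6 in P19 and 342 ± 29.6 in R1 (SD, n = 3 arrays each). P19 NTES7 array 1 and R1 array 3 had the highest sums of their lines. R1 arrays 1 and 2 were closer to each other than any other pair of arrays of a line (SD of the log2 difference 0.125, against 0.168 to 0.293).

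Guidance genes were expressed in all lines, and most of them were called in no comparison. Of the 67 genes, 28 had a mean above the median of all values in every line, 17 in some lines and 22 in none. The counts by line were 39 in P19 NTES7, 38 in P19 and 36 in R1. A gene was called where the Benjamini-Hochberg adjusted p of limma was under 0.01 over all probe sets and the fold change was over 2. In all, 19 of the 67 genes (28.4%) were called in at least 1 comparison, beside 9.37% of all genes, and 48 in none.

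**Figure D1:**
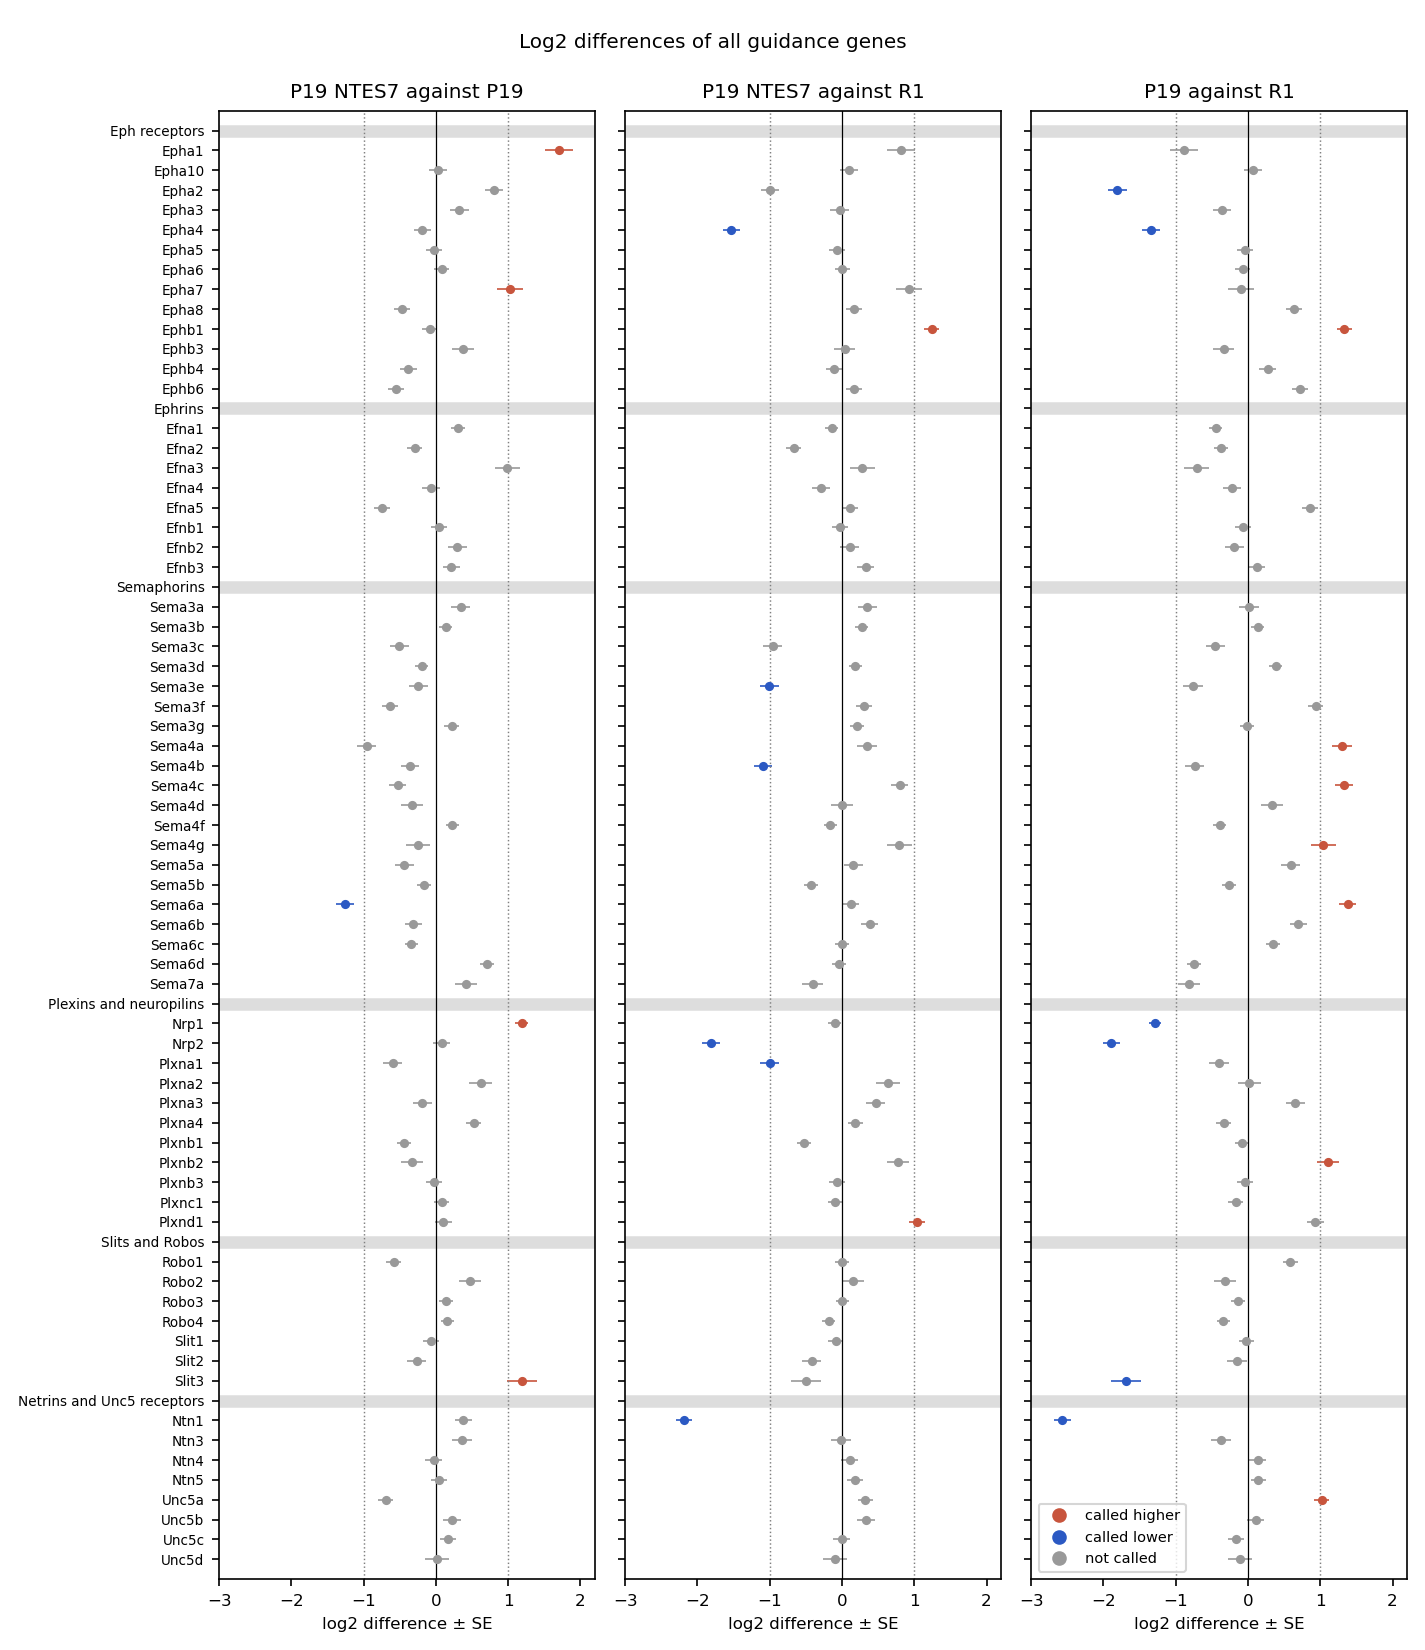
Log2 differences with standard errors (x axes) of the 67 guidance genes (rows, by family) in the 3 comparisons, with called genes coloured and dotted lines at a 2-fold difference. Most genes lie between the dotted lines, and the 4 semaphorins called in P19 against R1 are all higher in P19. Of all genes, 3.46% were called higher and 3.85% lower in that comparison.

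P19 NTES7 against P19 gave the fewest calls. Here 4 guidance genes were higher in P19 NTES7 (Epha1, Epha7, Nrp1 and Slit3) and 1 was lower (Sema6a), or 5.97% and 1.49% of the 67, beside 1.44% and 1.38% of all genes. A further 14 genes (20.9%, beside 9.31% of all genes) had an adjusted p under 0.01 with a fold under 2, with 4 of these above P19 and 10 below. The arrays of the lines did not overlap in 37 of the 67 genes, or 55.2%, beside 36.2% of all genes. Around the fold threshold lay Epha7, just inside with a log2 difference of 1.03, and Efna3, just outside with 0.99.

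Against R1, P19 NTES7 cells showed 2 guidance genes higher (Ephb1 and Plxnd1) and 6 lower (Epha4, Nrp2, Ntn1, Plxna1, Sema3e and Sema4b). These are 2.99% and 8.96% of the 67, where 1.68% and 2.84% of all genes were called. Another 11 genes (16.4%, beside 14.2% of all genes) passed the adjusted p with a smaller fold, 6 higher and 5 lower. For 34 genes (50.7%, beside 39.0% of all genes) the arrays of P19 NTES7 and R1 did not overlap.

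P19 against R1 gave 7 genes higher in P19 (Ephb1, Plxnb2, Sema4a, Sema4c, Sema4g, Sema6a and Unc5a) and 6 lower (Epha2, Epha4, Nrp1, Nrp2, Ntn1 and Slit3), or 10.4% and 8.96% of the 67, beside 3.46% and 3.85% of all genes. In this comparison 18 more genes (26.9%, beside 17.7% of all genes) passed the adjusted p with a fold under 2, 10 of them higher and 8 lower. P19 and R1 arrays were separate in 44 genes, or 65.7%, beside 47.4% of all genes. The median log2 difference over the 67 genes was 0.0206 in P19 NTES7 against P19, 0.00663 in P19 NTES7 against R1 and -0.0747 in P19 against R1, where all genes had medians of 0.0229, 0.0116 and -0.0187. The 3 comparisons share their arrays in pairs and are not independent of each other.

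**Figure D2:**
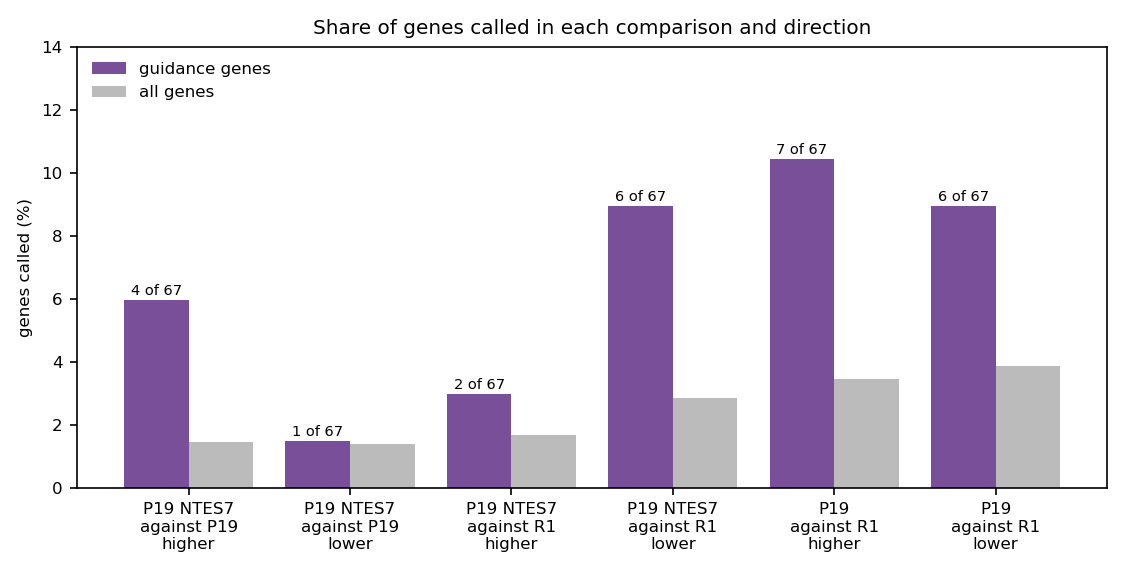
Percent of the 67 guidance genes (purple bars, with the number of genes above) and of all 19938 genes (grey bars) called in each comparison and direction. The guidance genes called higher in P19 than in R1 reach 10.4%, beside 3.46% of all genes, whereas those lower in P19 NTES7 than in P19 (1.49%) stand beside 1.38% of all genes.

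Among the Eph receptors, 5 of 13 were called in at least 1 comparison, beside 9.37% of all genes. The order of the lines was not the same for all 5. Epha1, the founding member of the Eph receptor tyrosine kinases, was brightest in P19 NTES7, with intensities of 87.2, 84.9 and 78.9, against 31.7, 29.0 and 18.5 in P19 and 41.5, 41.4 and 62.1 in R1. None of its P19 NTES7 arrays overlapped with those of the other lines. In log2 terms, the difference of P19 NTES7 against P19 was 1.70 ± 0.19 (SE, adjusted p = 3.17e-05), or a 3.25-fold higher level. Against R1 it was 0.82 ± 0.19 (adjusted p = 0.00611), which is under 2-fold. Since these are bulk samples, fewer cells that express a gene and less RNA per cell cannot be told apart here or below.

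Epha7, an A-type receptor of neural patterning, had a similar order. Its intensities were 95.6, 81.8 and 87.9 in P19 NTES7, against 37.95, 35.8 and 59.9 in P19 and 40.4, 43.1 and 57.3 in R1. All P19 NTES7 arrays lay above all others, while P19 array 3 and R1 array 3 were the high arrays of their lines. The log2 difference of P19 NTES7 against P19 was 1.03 ± 0.18 (adjusted p = 0.00122). This call was close to the fold threshold and was lost when P19 array 1 (0.93), P19 array 2 (0.89) or P19 NTES7 array 1 (0.97) was left out. Against R1 the log2 difference was 0.93 ± 0.18 (adjusted p = 0.00168).

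Epha2 was the brightest Eph receptor. It was lowest in the EC cells. Its intensities were 179, 143 and 146 in P19 NTES7, 94.1, 90.0 and 81.8 in P19, and 281, 289 and 366 in R1. The 3 lines were fully separate, with P19 NTES7 in the middle. In log2 terms, the difference of P19 against R1 was -1.81 ± 0.13 (adjusted p = 1.10e-07), a 3.50-fold lower level in P19. P19 NTES7 was higher than P19 by a log2 value of 0.81 ± 0.13 (adjusted p = 4.93e-04), and its log2 difference against R1 was -0.999 ± 0.13 (adjusted p = 5.09e-05), just outside the fold threshold.

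Epha4, which binds ephrins of both types, was low in both lines of P19 origin. Intensities were 40.4, 35.2 and 34.3 in P19 NTES7 and 37.5, 46.1 and 41.6 in P19, against 99.1, 97.4 and 122 in R1. P19 NTES7 and P19 overlapped, and both lay below every R1 array. The log2 difference was -1.53 ± 0.12 for P19 NTES7 against R1 (adjusted p = 6.42e-07) and -1.34 ± 0.12 for P19 against R1 (adjusted p = 1.15e-06). The difference of P19 NTES7 against P19 was -0.19 on the log2 scale and did not pass the test.

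Ephb1, a B-type receptor known from retinal axons at the optic chiasm, showed the reverse order. Its brightest probe set read 21.8, 23.9 and 21.9 in P19 NTES7 and 22.8, 22.2 and 27.2 in P19, against 10.1, 9.65 and 8.88 in R1. The R1 arrays were all below the median of all values, so the folds over R1 are over the floor of the array and are not exact. On the log2 scale, the difference was 1.24 ± 0.11 for P19 NTES7 against R1 (adjusted p = 1.42e-06) and 1.33 ± 0.11 for P19 against R1 (adjusted p = 3.61e-07). A dimmer probe set of the same gene read 9.80, 10.1 and 9.44 in P19 NTES7, 10.8, 11.4 and 12.4 in P19 and 9.49, 9.59 and 9.41 in R1. It was not called in P19 NTES7 against R1 (log2 difference 0.04, adjusted p = 0.808) or in P19 against R1 (0.28, adjusted p = 0.0313). The calls of the Ephb1 probe sets thus differ. The dimmer one lay below the median of all values on every array, where a difference may go unseen.

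The other 8 Eph receptors were called in no comparison. Ephb4, the receptor of venous endothelium, was the brightest of these, at 82.0, 68.7 and 73.7 in P19 NTES7, 91.5, 87.8 and 114 in P19 and 85.6, 82.4 and 73.8 in R1. Its arrays overlapped between P19 NTES7 and R1. Epha3, Epha5, Epha6, Epha8 and Epha10 stayed below the median of all values on average in every line. Epha8 and Ephb6, a receptor without kinase activity, were higher in P19 than in R1 with a fold under 2 (adjusted p = 4.11e-04 and 2.32e-04), but Epha8 was below the median of all values in every line and Ephb6 in P19 NTES7 and R1, so no exact fold is given.

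Ephrins, the ligands of these receptors, had no call. None of the 8 genes passed both thresholds in any of the 3 comparisons, where 9.37% of all genes were called in at least 1, and nothing particular to the ephrins is read from this count. Of these, 7 of the 8 had a mean above the median of all values in at least 1 line. Efnb2, the arterial ephrin that binds Ephb4, was the brightest, at 126, 97.3 and 127 in P19 NTES7, 95.9, 107 and 81.7 in P19 and 105, 117 and 101 in R1, and the lines overlapped. Its log2 differences of 0.30 against P19 and 0.11 against R1 in P19 NTES7 did not pass the test.

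Among the glycolipid-anchored ephrins, Efna3 and Efna5 came closest to a call, in opposite directions. Efna3 was at 43.9, 27.9 and 44.5 in P19 NTES7, against 16.7, 17.7 and 23.4 in P19 and 32.4, 32.6 and 28.6 in R1. P19 had the lowest level, without overlap. The log2 difference of P19 NTES7 against P19 was 0.99 ± 0.17 (adjusted p = 0.00119), and that of P19 against R1 was -0.71 ± 0.17 (adjusted p = 0.00614). Efna5 was at 20.02, 20.4 and 17.9 in P19 NTES7, against 29.1, 36.1 and 33.0 in P19 and 18.8, 18.7 and 16.5 in R1. P19 was the high line here, with log2 differences of -0.75 ± 0.11 for P19 NTES7 against P19 (adjusted p = 2.60e-04) and 0.86 ± 0.11 for P19 against R1 (adjusted p = 2.95e-05).

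More than 1 semaphorin was high in P19. Of 20 semaphorins, 4 (20%) were called higher in P19 than in R1 and 0 lower, beside 3.46% and 3.85% of all genes. All 4 are transmembrane semaphorins, as are 12 of the 20. Over the 20 genes, the median log2 difference in this comparison was 0.23, against -0.02 over all genes. In P19 NTES7 against P19, the median was -0.28 over the 20 genes, with 1 gene called lower and 0 higher. Of all genes, 1.38% were called lower and 1.44% higher here, and counts of 0 or 1 are near such shares. Both comparisons use the P19 arrays. With a fold under 2, 9 further semaphorins (45%, beside 17.7% of all genes) had an adjusted p under 0.01 in P19 against R1. Of these, 4 were higher in P19 and 5 lower.

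Sema6a, a class 6 transmembrane semaphorin that binds Plxna2 and Plxna4, was the most changed. It read 86.1, 84.1 and 91.1 in P19 NTES7, against 240, 220 and 171 in P19 and 77.3, 78.6 and 84.5 in R1. All P19 arrays stood far above the other lines, and P19 NTES7 was close to R1. The log2 difference was -1.26 ± 0.12 for P19 NTES7 against P19 (adjusted p = 7.71e-06), a 2.39-fold lower level, and 1.38 ± 0.12 for P19 against R1 (adjusted p = 9.14e-07). Between P19 NTES7 and R1 it was 0.12 ± 0.12.

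The class 4 transmembrane semaphorins Sema4a, Sema4c and Sema4g were likewise highest in P19. Sema4a, known from immune cells, read 18.1, 15.7 and 16.9 in P19 NTES7, against 28.3, 31.9 and 39.2 in P19 and 11.6, 13.0 and 15.6 in R1. Its log2 difference was 1.31 ± 0.14 for P19 against R1 (adjusted p = 5.27e-06) and -0.96 ± 0.14 for P19 NTES7 against P19 (adjusted p = 2.25e-04). This last difference was just under 2-fold. P19 was separate from both other lines, and R1 lay below the median of all values.

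Sema4c, a ligand of Plxnb2, read 33.3, 29.4 and 28.1 in P19 NTES7, 37.9, 46.0 and 47.4 in P19 and 18.6, 18.5 and 15.2 in R1. The lines did not overlap, and P19 NTES7 was again in the middle. In log2 terms, the difference of P19 against R1 was 1.33 ± 0.12 (adjusted p = 1.48e-06), that of P19 NTES7 against R1 was 0.80 ± 0.12 (adjusted p = 2.37e-04), and that of P19 NTES7 against P19 was -0.53 ± 0.12 (adjusted p = 0.00736).

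Sema4g, another ligand of Plxnb2, had intensities of 28.2, 18.1 and 21.1 in P19 NTES7, 26.3, 22.2 and 30.9 in P19 and 11.1, 12.49 and 14.8 in R1. P19 NTES7 and P19 overlapped, and R1 was below both. The R1 level was also below the median of all values, so the fold over R1 is not exact. The log2 difference of P19 against R1 was 1.04 ± 0.17 (adjusted p = 2.60e-04), and this call was lost when P19 array 3 (0.93) or R1 array 1 (0.95) was left out.

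Sema4b and Sema3e ran the other way, with the highest level in R1. Sema4b, a further class 4 semaphorin, read 60.2, 45.2 and 43.8 in P19 NTES7, 70.0, 63.1 and 56.6 in P19 and 107, 108 and 99.6 in R1. P19 NTES7 overlapped with P19 and was separate from R1, with a log2 difference of -1.09 ± 0.13 against R1 (adjusted p = 2.67e-05). P19 against R1 gave -0.74 ± 0.13 (adjusted p = 5.05e-04), under 2-fold.

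Sema3e, a secreted class 3 semaphorin that binds Plxnd1 without a neuropilin, was at 23.7, 26.5 and 31.5 in P19 NTES7, 36.3, 31.2 and 28.9 in P19 and 56.8, 60.3 and 46.4 in R1. The lines of P19 origin overlapped, and both lay below R1. In log2 terms, the difference of P19 NTES7 against R1 was -1.003 ± 0.14 (adjusted p = 8.86e-05), at the fold threshold. The call was lost without P19 NTES7 array 1 (-0.91), P19 NTES7 array 2 (-0.99), R1 array 1 (-0.97) or R1 array 2 (-0.93).

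Sema4d, a transmembrane ligand of Plxnb1, was among the 12 brightest guidance genes and was called in no comparison. It read 61.9, 39.5 and 45.9 in P19 NTES7, 65.8, 61.7 and 54.7 in P19 and 45.9, 43.2 and 56.4 in R1, with overlap between all lines. Sema3b, Sema3d, Sema3g, Sema4f and Sema5b stayed below the median of all values on average in every line. Sema3f, a repellent that acts through Nrp2, came near to a call. It was at 37.2, 30.0 and 28.3 in P19 NTES7, 50.8, 49.4 and 46.8 in P19 and 25.6, 25.0 and 26.3 in R1, with a log2 difference of 0.93 ± 0.11 for P19 against R1 (adjusted p = 1.50e-05).

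**Figure D3:**
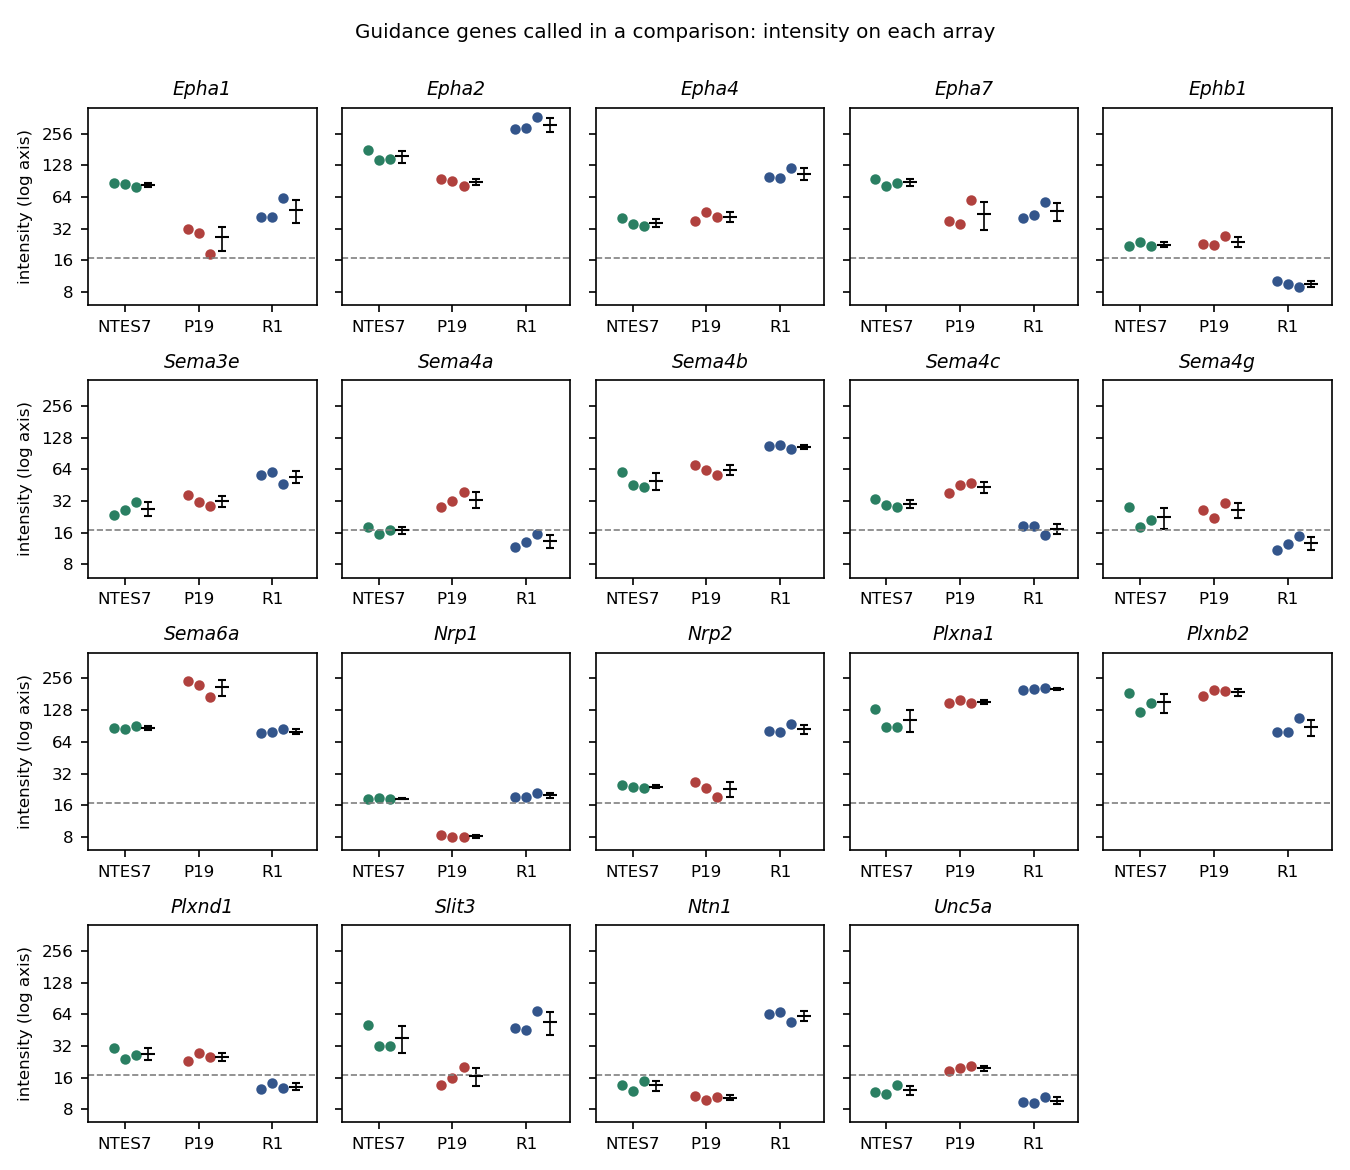
Intensity on each array (y axes, log scale) of the 19 guidance genes called in at least 1 comparison, by line, with the mean and SD over 3 arrays beside the points and the median of all values (16.9) as a dashed line. Nrp1 in P19 NTES7 (18.1 to 18.8) lies beside R1, whereas Nrp2 in P19 NTES7 (23.2 to 25.0) lies beside P19.

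The neuropilins, the co-receptors of class 3 semaphorins and of vascular endothelial growth factors, were both lower in P19 than in R1, and differed in P19 NTES7. Nrp1, the receptor part for Sema3a, read 18.5, 18.8 and 18.1 in P19 NTES7, against 8.42, 8.003 and 7.89 in P19 and 19.1, 19.3 and 21.0 in R1. P19 NTES7 stood above all P19 arrays and directly below R1. On the log2 scale, the difference was 1.19 ± 0.09 for P19 NTES7 against P19 (adjusted p = 7.94e-07) and -1.29 ± 0.09 for P19 against R1 (adjusted p = 9.93e-08). P19 was far below the median of all values and the other lines just above it, so the 2.28-fold difference is over the floor of the array and is not exact.

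Nrp2, the receptor part for Sema3f, read 25.0, 24.0 and 23.2 in P19 NTES7, 26.7, 23.1 and 19.2 in P19 and 81.0, 79.0 and 94.2 in R1. P19 NTES7 and P19 overlapped, and R1 was far above both. The log2 difference was -1.81 ± 0.12 for P19 NTES7 against R1 (adjusted p = 1.51e-07), a 3.51-fold lower level, and -1.89 ± 0.12 for P19 against R1 (adjusted p = 5.42e-08). Between P19 NTES7 and P19 it was 0.08 ± 0.12. The fibroblast marker sum was 1291 to 1585 in P19 NTES7, 365 to 403 in P19 and 1874 to 2176 in R1, and the part of these markers in the levels of the neuropilins was not tested.

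The start regions of both neuropilin genes are shown because these genes, alike in family, had different levels in P19 NTES7, and that of Ephb1 because it differs from the rest of the called genes. The windows run from 250 bases before to 50 bases after the RefSeq start (GRCm38.p6), 5′ to 3′ on the strand of the gene. Capitals mark GC boxes (GGGCGG, on either strand) in the windows of Nrp1 (chr8:128358823-128359122, plus strand) and Nrp2 (chr1:62703067-62703366, plus strand), and CCAAT boxes (CCAAT, on either strand) in that of Ephb1 (chr9:102354644-102354943, minus strand).
Nrp1: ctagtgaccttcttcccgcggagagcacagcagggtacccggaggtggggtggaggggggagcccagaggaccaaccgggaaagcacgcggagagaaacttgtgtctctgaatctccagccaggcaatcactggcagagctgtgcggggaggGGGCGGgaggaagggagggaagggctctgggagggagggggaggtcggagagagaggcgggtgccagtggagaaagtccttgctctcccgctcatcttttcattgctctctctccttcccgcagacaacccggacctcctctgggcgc
Nrp2: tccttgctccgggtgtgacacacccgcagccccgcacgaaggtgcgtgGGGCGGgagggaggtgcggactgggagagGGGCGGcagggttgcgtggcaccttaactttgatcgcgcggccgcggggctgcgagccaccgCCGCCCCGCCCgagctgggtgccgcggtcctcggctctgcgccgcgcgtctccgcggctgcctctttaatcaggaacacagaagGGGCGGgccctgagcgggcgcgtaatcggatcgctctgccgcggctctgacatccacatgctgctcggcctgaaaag
Ephb1: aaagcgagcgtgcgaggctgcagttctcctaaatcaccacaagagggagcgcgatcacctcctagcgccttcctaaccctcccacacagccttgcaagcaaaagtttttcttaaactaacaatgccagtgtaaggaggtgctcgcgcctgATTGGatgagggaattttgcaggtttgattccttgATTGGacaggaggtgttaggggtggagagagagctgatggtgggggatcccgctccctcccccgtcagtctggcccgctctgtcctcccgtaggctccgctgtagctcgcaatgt
The window of Nrp1 held 1 GC box and 14 CpG dinucleotides, that of Nrp2 5 GC boxes and 37 CpG dinucleotides, with a pair of its GC boxes sharing 1 base, and that of Ephb1 no GC box, 2 CCAAT boxes and 14 CpG dinucleotides.

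RefSeq windows were matched by symbol for 58 of the 67 guidance genes (74 windows), among them 16 of the 19 called genes (23 windows). A GC box was present in 71.6% of the windows of the guidance genes and in 91.3% of those of the called genes, against 35.7% of all 32851 windows. Ephb1 was the one called gene with a window and no GC box in any of its windows. The median number of CpG dinucleotides was 18.5 for the guidance genes, 19 for the called genes and 7 for all windows. A TATA box (TATAAA) was found in 2.70% of the windows of the guidance genes and 13.6% of all windows. Neither the octamer ATGCAAAT, the motif of Pou5f1 and related factors, nor TCAAGGTCA, the half-site of Esrrb, was found in any of the 74 windows, and these were present in 1.74% and 0.423% of all windows. These matches describe letters in a window only.

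Plexins, the signalling receptors of the semaphorins, gave 3 genes of 9 called in at least 1 comparison, beside 9.37% of all genes. Plxnb2, the receptor of Sema4c and Sema4g, was among the brightest guidance genes, at 186, 123 and 149 in P19 NTES7, 174, 199 and 193 in P19 and 79.6, 79.8 and 107 in R1. P19 NTES7 overlapped with P19, and every R1 array was below them. The log2 difference of P19 against R1 was 1.10 ± 0.15 (adjusted p = 7.08e-05), and that of P19 NTES7 against R1 was 0.78 ± 0.15 (adjusted p = 0.00182). Plxnb2 and its ligands Sema4c and Sema4g were thus all called higher in P19 than in R1, and all 3 were higher in P19 NTES7 than in R1 with an adjusted p under 0.01 and a fold under 2. Of these, Sema4g had an R1 level below the median of all values and a call that depended on single arrays, as given above.

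Plxnd1, the vascular plexin that binds Sema3e, was higher in both lines of P19 origin. Its intensities were 30.7, 24.3 and 26.0 in P19 NTES7 and 22.8, 27.3 and 25.1 in P19, against 12.4, 14.2 and 12.7 in R1, where it lay below the median of all values. The lines of P19 origin overlapped and both were above R1, the reverse of its ligand Sema3e. On the log2 scale, the difference was 1.04 ± 0.11 for P19 NTES7 against R1 (adjusted p = 1.49e-05) and 0.93 ± 0.11 for P19 against R1 (adjusted p = 2.22e-05), so that only the first was called. That call was lost without P19 NTES7 array 1 (0.94) or R1 array 1 (0.998).

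Plxna1, a partner of the neuropilins, was at 131, 89.5 and 88.6 in P19 NTES7, 150, 161 and 149 in P19 and 198, 205 and 206 in R1. P19 NTES7 was the lowest line, and no lines overlapped. In log2 terms, the difference of P19 NTES7 against R1 was -1.002 ± 0.13 (adjusted p = 8.73e-05), at the fold threshold, and -0.60 ± 0.13 against P19 (adjusted p = 0.00667). P19 NTES7 array 1 was the high array of its line. The call was lost without P19 NTES7 array 2 (-0.91), P19 NTES7 array 3 (-0.91), R1 array 2 (-0.995) or R1 array 3 (-0.99). Plxnb3 and Plxnc1 were below the median of all values on average in every line.

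Among the Slits and Robos only the ligand Slit3 was called, or 1 of 7, beside 9.37% of all genes. Slit3 read 50.8, 31.7 and 31.9 in P19 NTES7, against 13.6, 15.96 and 20.004 in P19 and 46.9, 45.1 and 68.8 in R1. All P19 arrays were lower than those of the other lines, and P19 NTES7 array 1 overlapped with R1. The log2 difference was 1.19 ± 0.21 for P19 NTES7 against P19 (adjusted p = 0.00105), which fell to 0.96 without P19 NTES7 array 1 and then lost its call, and -1.69 ± 0.21 for P19 against R1 (adjusted p = 2.16e-05).

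The high arrays of Slit3, P19 NTES7 array 1 and R1 array 3, were also those with the highest fibroblast marker sums of their lines, 1585 and 2176. Of the 23 measured fibroblast markers, 14 passed as higher and 0 as lower in P19 NTES7 against P19, and 18 as lower and 0 as higher in P19 against R1. Beside these stand 1.44% higher and 1.38% lower of all genes in the first comparison. In the second, 3.85% of all genes were called lower and 3.46% higher, and the counts of 0 are near these shares. The part of the fibroblast markers in the level of Slit3 was not tested.

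Robo1, a Slit receptor of axons crossing the midline, was among the 12 brightest guidance genes and was called in no comparison. Its intensities were 154, 132 and 132 in P19 NTES7, 195, 203 and 229 in P19 and 139, 137 and 141 in R1. P19 was above both other lines without overlap, by a log2 difference of 0.59 ± 0.10 against R1 (adjusted p = 4.79e-04), and P19 NTES7 against P19 gave -0.58 ± 0.10 (adjusted p = 0.00108). Slit2, a Robo ligand of the nervous system, was at 40.1, 32.4 and 34.3 in P19 NTES7, 37.6, 39.3 and 52.9 in P19 and 43.4, 51.1 and 48.1 in R1 and was not called. Robo2, Robo3, Robo4 and Slit1 were below the median of all values on average in every line.

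Ntn1, the secreted netrin that attracts commissural axons, had the largest log2 difference of the 67 genes in both comparisons against R1. It read 13.5, 12.02 and 14.9 in P19 NTES7 and 10.7, 9.76 and 10.5 in P19, against 63.8, 66.9 and 53.8 in R1. Both lines of P19 origin were below the median of all values on each array, and R1 was far above it. On the log2 scale, the difference was -2.19 ± 0.11 for P19 NTES7 against R1 (adjusted p = 1.23e-08) and -2.57 ± 0.11 for P19 against R1 (adjusted p = 1.31e-09). These are 4.56-fold and 5.93-fold lower levels, measured over the floor of the array and not exact. P19 NTES7 against P19 gave 0.38 ± 0.11 and did not pass the test.

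Of the Unc5 receptors, Unc5a was the only one called, or 1 of 4, beside 9.37% of all genes. Unc5a, a repulsive netrin receptor, read 11.7, 11.2 and 13.6 in P19 NTES7, 18.3, 19.6 and 20.8 in P19 and 9.39, 9.15 and 10.5 in R1. P19 was the only line above the median of all values. The log2 difference of P19 against R1 was 1.02 ± 0.11 (adjusted p = 5.16e-06), a call that was lost without P19 array 3 (0.97), R1 array 1 (0.996) or R1 array 2 (0.98). P19 NTES7 against P19 gave -0.69 ± 0.11 (adjusted p = 4.14e-04).

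Unc5b, the vascular netrin receptor, was the brightest of the netrin family, at 69.9, 49.8 and 52.1 in P19 NTES7, 50.9, 48.6 and 46.1 in P19 and 45.5, 45.5 and 44.3 in R1, and was called in no comparison. Of the attractive receptors, which stood in the list of partners, Dcc was near the floor in all lines (7.17 to 9.35 over the 9 arrays), and Neo1, or neogenin, was well above it, at 97.2, 96.2 and 78.5 in P19 NTES7, 77.6, 79.2 and 105 in P19 and 105, 106 and 103 in R1. Unc5c, Unc5d, Ntn3, Ntn4 and Ntn5 were below the median of all values on average in every line.

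Both ligands and receptors were among the called genes. Of 35 ligands, P19 NTES7 against P19 gave 1 higher and 1 lower, P19 NTES7 against R1 gave 0 higher and 3 lower, and P19 against R1 gave 4 higher and 2 lower. Of 32 receptors, the counts were 3 and 0, 2 and 3, and 3 and 4 in the same order. Of all genes, 1.44% and 1.38%, 1.68% and 2.84%, and 3.46% and 3.85% were called higher and lower in these comparisons, and counts of 0 or 1 are near these shares.

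Partner and effector genes of the guidance pathways were counted from a list of 66, of which 62 were measured. In P19 NTES7 against P19, 1 was called higher and 5 lower, in P19 NTES7 against R1 3 higher and 4 lower, and in P19 against R1 6 higher and 4 lower. As shares of the 62 these are 1.61% and 8.06%, 4.84% and 6.45%, and 9.68% and 6.45%, beside 1.44% and 1.38%, 1.68% and 2.84%, and 3.46% and 3.85% of all genes. The median log2 difference of the list was -0.05, -0.07 and -0.01 in these comparisons.

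Nrcam and L1cam, adhesion molecules of one family, were highest in P19 NTES7. Nrcam, a partner of the neuropilins in growth cones, read 123, 122 and 105 in P19 NTES7, against 36.8, 37.3 and 30.1 in P19 and 22.3, 22.5 and 36.8 in R1. The log2 difference was 1.75 ± 0.17 against P19 (adjusted p = 9.66e-06) and 2.14 ± 0.17 against R1 (adjusted p = 8.13e-07). L1cam, a co-receptor for Sema3a with Nrp1, read 40.4, 38.2 and 35.3 in P19 NTES7, against 19.02, 23.2 and 22.3 in P19 and 13.0, 12.52 and 11.3 in R1. Its log2 difference against R1 was 1.63 ± 0.11 (adjusted p = 1.11e-07). The R1 arrays of L1cam were all below the median of all values, so its fold over R1 is not exact. Both genes had all P19 NTES7 arrays above all arrays of the other lines. Cxcr4, the chemokine receptor whose signal Slit can oppose, was at 97.7, 101 and 77.3 in P19 NTES7, 56.6, 86.1 and 67.9 in P19 and 29.0, 30.3 and 29.6 in R1, with log2 differences against R1 of 1.63 in P19 NTES7 and 1.22 in P19.

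The effectors lower in P19 NTES7 than in P19 act inside the cell on the cytoskeleton. Trio, an exchange factor downstream of Dcc, read 39.5, 34.4 and 33.2 in P19 NTES7, against 121, 129 and 122 in P19 and 43.9, 44.8 and 56.3 in R1, with a log2 difference of -1.80 ± 0.12 against P19 (adjusted p = 1.74e-07). Crmp1 and Dpysl2, collapsin response mediators of semaphorin signals, had log2 differences of -1.79 ± 0.15 and -1.24 ± 0.15 in the same comparison. Dpysl2 was at 98.8, 74.6 and 100.5 in P19 NTES7, 215, 201 and 228 in P19 and 63.3, 70.6 and 92.1 in R1. Crmp1 read 62.5, 37.8 and 49.0 in P19 NTES7, 162, 165 and 181 in P19 and 97.3, 93.6 and 105.5 in R1. It was also called lower in P19 NTES7 than in R1 (log2 difference -1.02 ± 0.15, adjusted p = 1.69e-04). For Trio, Crmp1 and Dpysl2, P19 was the high line, without overlap with the others.

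Enah, the actin regulator downstream of Robo and netrin receptors, had the largest difference of the partners in P19 NTES7 against R1. It read 162, 128 and 129 in P19 NTES7 and 200, 178 and 192 in P19, against 630, 627 and 652 in R1. On the log2 scale, the difference was -2.19 ± 0.11 for P19 NTES7 against R1 (adjusted p = 7.16e-09) and -1.75 ± 0.11 for P19 against R1 (adjusted p = 3.34e-08). Flrt2, a ligand of Unc5 receptors, was lower in P19 than in R1 by a log2 difference of -1.92 ± 0.13, with a P19 level at the floor (7.17 to 9.24). Fyn, a kinase downstream of plexins and Dcc, was higher in P19 than in R1 by 1.56 ± 0.19 on the log2 scale (adjusted p = 2.60e-05).

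The 13 guidance genes called between P19 and R1 were then set on a scale on which the P19 mean is 0 and the R1 mean is 1, to describe where P19 NTES7 lay. The values were spread over the whole range. Nrp1 (0.92) and Sema6a (0.91) were close to R1, followed by Sema4a (0.74), Slit3 (0.70) and Unc5a (0.68). Epha2 (0.45), Sema4c (0.40), Plxnb2 (0.30) and Sema4g (0.24) were between the lines on the side of P19. Ntn1 (0.15), Ephb1 (0.07) and Nrp2 (0.04) were close to P19, and Epha4 (-0.14) was slightly beyond it. By this measure 8 genes were nearer to P19 and 5 nearer to R1. For 3 of the genes (Nrp1, Ntn1 and Slit3) the P19 mean and for 4 (Ephb1, Sema4a, Sema4g and Unc5a) the R1 mean lay below the median of all values, so that their places on the scale are not exact. Of the other 6 genes, 5 were nearer to P19 and 1, Sema6a, nearer to R1. The fibroblast marker sum also lay between the lines in P19 NTES7 (1291 to 1585), with 365 to 403 in P19 and 1874 to 2176 in R1. The part of these markers in the places of the 13 genes, Epha2 among them, was not tested.

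By the calls, P19 NTES7 differed from R1 and not from P19 in 4 of the 13 genes (Ephb1, Epha4, Nrp2 and Ntn1), and from P19 and not from R1 in 3 (Nrp1, Sema6a and Slit3). No gene was called against both, and 6 were called against neither. Genes of both directions were found among those near R1 and among those near P19: of the 7 genes higher in P19 4 were nearer to P19 and 3 to R1, and of the 6 lower in P19 4 and 2. Since the P19 and R1 arrays set the ends of the scale, no test was made on these values. The same places and calls were not counted over all genes, so nothing particular to the guidance genes is read from these counts.

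**Figure D4:**
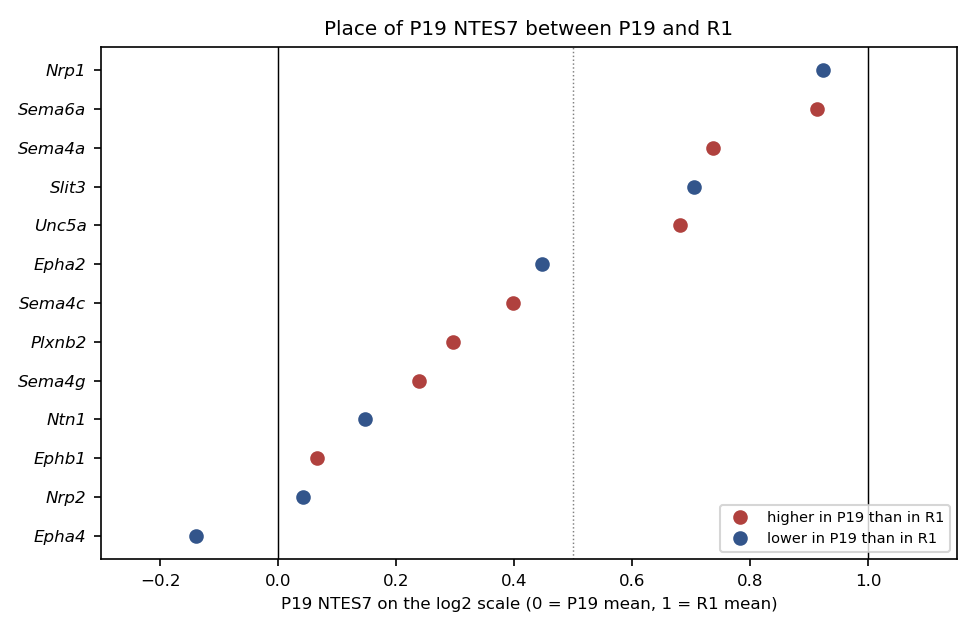
Place of P19 NTES7 (x axis, log2 scale set to 0 at the P19 mean and 1 at the R1 mean) for the 13 guidance genes called between P19 and R1, coloured by the direction of that call. The genes run from Nrp1 at 0.92 to Epha4 at -0.14, with 5 genes on the R1 side of the middle, and 7 of the 13 have an end of their scale below the median of all values.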

How the data were processed

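The values of the 9 arrays were taken without further scaling. The authors, per their methods, normalized them with Robust Multichip Average (RMA), which corrects the background, adjusts the arrays to 1 distribution and sums the probes of a probe set. The deposited values are intensities on the linear scale, and the median scaling named in the methods is not in them. No detection p comes with them, so the median of all values (16.9) served as the floor. Probe sets differ in their response, so "brightest" refers to the signal of a probe set and not to RNA levels between genes. Platform annotation named 21789 probe sets with 1 gene symbol, 1621 with several and 5443 with none. A gene with 1 symbol was represented by its brightest probe set by mean log2 value.

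The log2 values (28853 probe sets, unfiltered) went into 1 fit of limma 3.58.1 in R 4.3.3, over all 9 arrays and with the line as the only factor. Benjamini-Hochberg adjustment ran over all probe sets of a comparison, and every adjusted p in the text comes from limma. A gene was called at an adjusted p under 0.01 and a fold over 2. The methods set the same limits on the p of an analysis of variance and name no adjustment. Errors of log2 differences are standard errors. The fit was tested on simulated arrays.

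The members and the lists of partners and markers were chosen with earlier results of these data known. Named are all called members, the 12 brightest, those below the median in every line, the nearest members around a threshold, and up to 4 called partners per comparison. Other genes given with values were chosen after their values were seen. Lists of neural, endothelial and endoderm markers were summed as well, at 378 to 420, 136 to 138 and 184 to 193 in P19 NTES7, 731 to 866, 118 to 121 and 181 to 191 in P19, and 602 to 659, 260 to 312 and 165 to 177 in R1. Promoter windows are those of RefSeq (GRCm38.p6). The 20 alternatives changed the scaling, filter, variance model, probe set rule, thresholds, block or the arrays kept.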

Additional observations from a re-analysis of the deposited data

How the results depend on the processing

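Of the 26 named log2 differences of guidance genes, 17 kept their call in all 20 alternatives, 9 lost it in at least 1 and 0 changed direction. The alternatives with an adjusted p under 0.05 or a fold over 1.5 only loosened the thresholds, so they could not lose a call. Lost besides the losses by array given above were both calls of Ephb1 with the mean of a gene's probe sets (0.80 in P19 against R1 and 0.64 in P19 NTES7 against R1). Epha7 and Plxna1 were lost with the methods' own analysis of variance on linear means, Epha7 with centred arrays, Plxna1 and Sema3e with quantile normalization, and Sema3e, Sema4g and Unc5a with R1 arrays 1 and 2 taken as 1 array, an alternative chosen after seeing the data. The causes were not tested. A fold over 1.5 gave 7 guidance genes higher and 6 lower in P19 NTES7 against P19, 8 higher in P19 NTES7 against R1, and 16 higher and 12 lower in P19 against R1. Efna2, Epha2 and Sema3c then joined the 6 genes lower in P19 NTES7 than in R1. For the partners this limit gave 3 higher and 8 lower, 7 higher and 8 lower, and 13 higher in the same comparisons. The partners lower in P19 than in R1 at this limit are not given. No share of all genes was counted at this limit, so nothing particular to the guidance genes or partners is read from these counts. The mean of probe sets left 1 gene higher in P19 NTES7 than in R1, and centred arrays gave 2 lower in P19 NTES7 than in P19.

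Leaving out 1 array gave 2 to 5 genes higher and 1 to 2 lower in P19 NTES7 against P19, 1 to 4 higher and 5 to 6 lower in P19 NTES7 against R1, and 5 to 7 higher and 6 to 7 lower in P19 against R1. The lowest counts higher were 2, without P19 NTES7 array 1, against P19 and 1, without P19 NTES7 array 1 or R1 array 1, against R1, and the highest was 4 without R1 array 3. Partners lower in P19 NTES7 than in R1 numbered 2 to 5, with 2 without R1 array 3. Replicate numbers did not pair the arrays (correlations of deviations from -0.223 to 0.04, and 2 of 18 best with their own number). With a replicate block the counts were again 4 and 1, 2 and 6, and 7 and 6, and all 26 calls held. The filter on dim probe sets kept 15842 of them and 45 of the guidance genes, which limits what can be said of the other 22, and 3 arrays a line limit the precision.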
